A study of Mus musculus with 9 samples.

Results

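The genes described here encode the eukaryotic translation initiation factors (eIFs) and elongation factors (eEFs), together with the kinases, binding proteins and methyltransferases that carry their names. Members were every row of the deposited gene table whose symbol starts with Eif1, Eif2, Eif3, Eif4, Eif5, Eif6, Eef1 or Eef2, which gave 60 of 15434 genes. No measured value entered that rule. The study profiled RNA of macrophages isolated by cell sorting from 3 organs of untreated C57BL/6J mice: the testis, the epididymis and the brain, whose cells the labels call microglia. Each organ has 3 libraries, which makes 9. In each organ the sorted cells were live, CD45+, Ly6C-, CD11c-, CD11b+ and F4/80+, were taken from tissue digested for 40 minutes, and were not cultured. No allele, transgene or agent is named for any of the 3 groups, and age is not given in the sources used here. The labels give mouse number 1 to the 3 testis libraries, 2 to the 3 epididymis libraries and 3 to the 3 brain libraries, so organ and mouse number cannot be told apart. All p-values rest on differences among the libraries of 1 organ, and those differences may be technical only. The protocol speaks of pooling cell suspensions of testes and epididymides and leaves unsaid whether the organs were mixed, so libraries are named here by their labels.

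Translation begins when eIF4F, made of the cap-binding eIF4E, the scaffold eIF4G and the helicase eIF4A, recruits the small ribosomal subunit, which carries eIF1, eIF1A, eIF3 and eIF2 with the initiator tRNA. The exchange factor eIF2B recharges eIF2 with GTP, and the eIF2α kinases block that step under stress, while the eIF4E-binding proteins (4E-BPs) block eIF4F when mTORC1 is inactive. In elongation, eEF1A brings each aminoacyl-tRNA, the eEF1B subunits recharge eEF1A, and eEF2 moves the ribosome along the mRNA unless eEF2 kinase phosphorylates it. Many mRNAs of the elongation machinery begin with a terminal oligopyrimidine (TOP) tract, through which mTORC1 sets their translation.

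Libraries held 2727092 to 4458688 reads in genes, and 1 read corresponded to a normalised read count of 0.808 to 1.11. All 12 macrophage markers looked for were present in the table, with summed shares of 54.8 to 57.6 reads per 10000 in testis, 93.6 to 101 in epididymis and 128 to 135 in brain. Csf1r had the highest value of these markers in every library, at 6845 to 8726 in testis and 19251 to 24507 in brain. Not all markers followed the order of the sum. Ptprc was higher in all testis than all brain libraries, and Adgre1 was lowest in brain. The 9 microglia markers in the table summed to 8.24 to 9.37, 37.8 to 44.4 and 99.7 to 114 reads per 10000 in the same order. Principal component 3 of the tested genes, with 14.2% of the variance, put testis replicate 1 at 99.1 and epididymis replicate 3 at 97.2, and the other 4 testis and epididymis libraries between -94.6 and -45.7. Each call below that is lost without one of those libraries is named.

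The members as a group took more reads in testis than elsewhere. They took 114, 118 and 120 reads per 10000 in the testis libraries, 95.7, 97.2 and 103 in epididymis, and 86.6, 87.5 and 91.4 in brain. The groups did not overlap, and the 5 elongation factors made up most of the distance: they alone summed to 33.2 to 39.4 reads per 10000 in testis, 17.9 to 24.1 in epididymis and 12.9 to 15.8 in brain. The 52 initiation factors and their regulators overlapped between testis (73.4 to 84.1) and epididymis (69.3 to 82.4), and brain, at 68.8 to 71.4, lay below testis and overlapped epididymis. In bulk samples, fewer cells of a type and less RNA per cell cannot be told apart.

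Each gene was then tested with limma on log2(normalised read count + 1). The word called is used here for an adjusted p of that test under 0.05, with the adjustment over all 11766 tested genes, unless another tool is named. Of the 60 members, 59 reached the minimum of 10 in 3 libraries. The member left out was Eif4ebp3, a 4E-BP, at 0 in all testis and epididymis libraries, where 3 reads are worth at most 3.34, and at 0, 53.5 and 6.22 in brain. The 3 comparisons share libraries in pairs, so their results are given side by side and not as independent evidence.

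Against brain, 9 tested members were higher in testis macrophages and 2 were lower. The higher ones were Eef1a1, Eef1b2, Eef1d, Eef1g, Eef2, Eif1, Eif3f, Eif4b and Eif4e3, and the lower ones were Eef2k and Eef2kmt. Among all tested genes, 6.82% were higher and 4.83% lower in testis, against 15.3% and 3.39% of the tested members. Against epididymis, 6 members were higher in testis and 0 were lower, where 2.49% and 1.9% of all tested genes were called, 4.39% in either direction. The 6 were Eef1a1, Eef1b2, Eef1g, Eef2, Eif1 and Eif4e3. At an unadjusted p below 0.05, which 17.5% of all tested genes reached in either direction, limma placed 14 members higher and 5 lower in testis than epididymis. At an adjusted p below 0.05, edgeR and DESeq2 on recovered reads called 0 members lower. At an unadjusted p below 0.05, edgeR and DESeq2 each placed 5 lower. Between epididymis and brain, Eef2 and Eif3f were higher in epididymis and 0 members were lower, against 2.99% and 1.8% of all tested genes, 4.79% in either direction. The 2 higher members, 3.39% of those tested, are a share near the background. At an unadjusted p below 0.05, which 16.4% of all tested genes reached here in either direction, limma placed 6 members higher and 2 lower in epididymis than brain. At an adjusted p below 0.05, edgeR called 0 and DESeq2 called 1 lower. At an unadjusted p below 0.05, edgeR placed 3 and DESeq2 placed 2 lower. An F test over the 3 organs called the 11 members already named, 1 test per gene, against 11.4% of all tested genes.

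**Figure D1:**
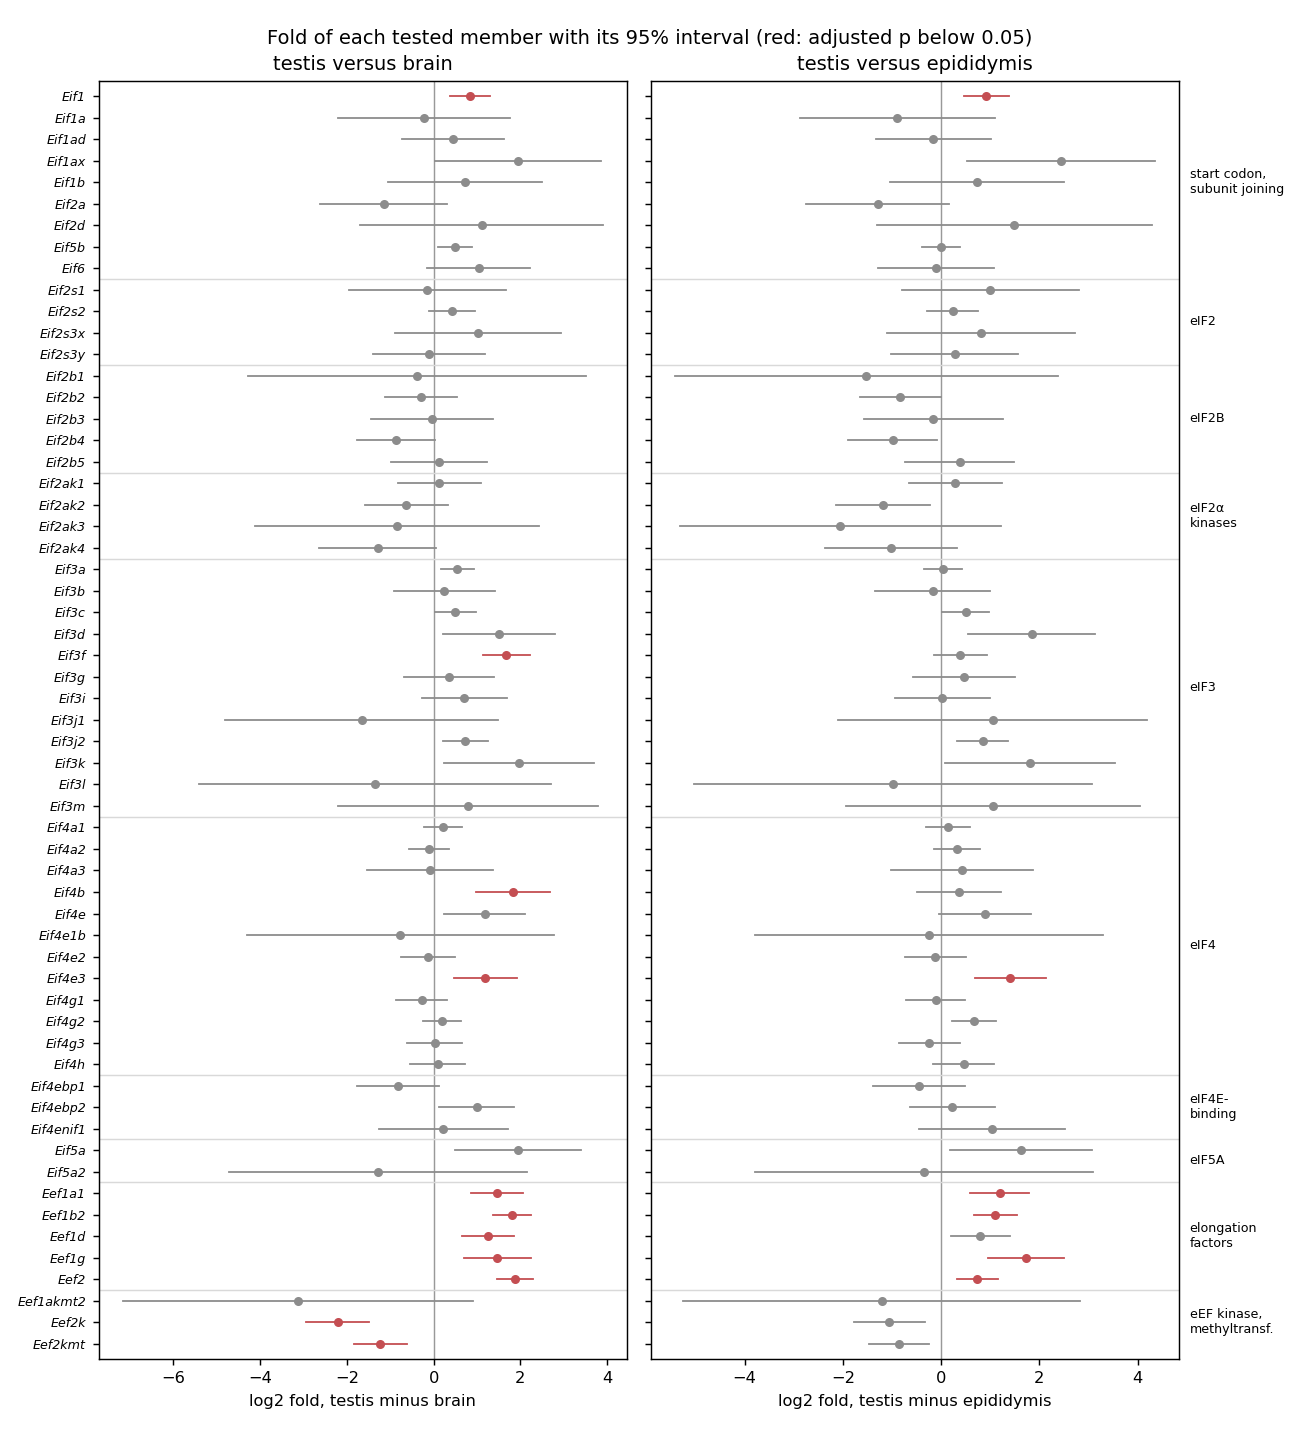
Log2 fold of each of the 59 tested members, testis minus brain (left) and testis minus epididymis (right), on the log2(normalised read count + 1) scale, with its 95% interval, and with called members in red. All 5 elongation factors lie right of 0 in both panels and all 3 genes of the elongation factor kinase and methyltransferases lie left of 0, although Eef1akmt2, Eef1d in the right panel, and the kinase and methyltransferases in the right panel are not called.

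The median log2 fold of the tested members was 0.29 for testis over epididymis, 0.23 for testis over brain and 0.00 for epididymis over brain, beside 0.10, -0.07 and -0.13 for all tested genes. All 3 testis libraries lay above all 3 brain libraries for 23 tested members (39.0%) and below them for 5, beside 15.9% and 14.9% of all tested genes. Testis lay wholly above epididymis for 15 members and wholly below for 5, beside 11% and 8.8%. Epididymis lay wholly above brain for 7 and wholly below for 5, beside 10.5% and 11.5%. The level of a gene bears on these shares. With a level set after the values were seen, and below the mean of the lowest called member, 25 tested members had a mean of at least 300 over the 9 libraries. Among all tested genes at that level, 19.2% were called higher in testis than brain and 14.3% lower, against 36% and 8% of the 25 members. Below it the shares of all tested genes were 4.15% and 2.77%, and 0 of the 34 members there were called in any comparison. Against epididymis, 8.17% of the genes at the upper level and 24% of the 25 members were higher in testis. For epididymis over brain these shares were 9.99% and 8%. The level placed every called member among the 25, which raises their shares by construction, so no conclusion is drawn from them. Rescaling the libraries to the same total moved the median of all tested genes from 0.10 to -0.05 for testis over epididymis and from -0.07 to -0.29 for testis over brain. Genes called higher and lower in testis then numbered 227 and 307 against epididymis, in place of 293 and 223, and 654 and 772 against brain, in place of 803 and 568. No called member changed sign under any of the 3 other scalings tried.

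The elongation factors were the most uniform group. All 5 were higher in testis than brain, 4 of 5 were higher in testis than epididymis, and 1 of 5, Eef2, was higher in epididymis than brain. Their median log2 folds were 1.47, 1.10 and 0.46. Among all tested genes, 6.82%, 2.49% and 2.99% were called in these directions. Some calls of the 5 elongation factors depended on the model, the scaling or the libraries used. Without the variance trend, limma called only Eef1b2 and Eef2 against brain and 0 of the 5 in the other comparisons. Eef1a1, Eef1d and Eef1g then had adjusted p-values of 0.098, 0.119 and 0.0862 for testis over brain. In the order above, edgeR called 5, 3 and 1 of the 5, and DESeq2 called 5, 4 and 2. With only the 6 compared libraries, limma lost the testis over epididymis calls of Eef1a1, Eef1g and Eef2 (adjusted p = 0.0934, 0.0574 and 0.0787). Quantile normalization also ended those of Eef1a1 and Eef2, and rescaling to the same total that of Eef2 (adjusted p = 0.126).

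Eef1a1, which encodes the factor that delivers aminoacyl-tRNA, lies at chr9:78478449-78489151 (GRCm38, minus strand). Its normalised read counts were 3711, 3954 and 6444 in testis, 3004, 1653 and 1598 in epididymis, and 1486, 1343 and 2240 in brain. All testis values exceeded all others, and epididymis and brain overlapped. The log2 fold was 1.47 ± 0.28 (SE) for testis over brain (adjusted p = 0.00265) and 1.19 ± 0.28 over epididymis (adjusted p = 0.0261), that is 2.76-fold and 2.28-fold on this scale. For epididymis over brain it was 0.28, with a 95% interval of -0.33 to 0.88. The call against brain held without each library in turn. The call against epididymis was lost without testis replicate 2 or 3 or epididymis replicate 2 or 3, with an adjusted p of up to 0.121. Eef1a1 has 15 pseudogenes with at least 90% identity over 300 bases in GENCODE M21, and how shared reads were counted is not given in the sources used here, so its level is uncertain.

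The 3 subunits of eEF1B, the exchange factor for eEF1A, were also highest in testis by their means. Eef1b2, the eEF1Bα subunit (chr1:63176825-63180486, plus strand), stood at 3103, 4658 and 3774 in testis, 1894, 1812 and 1606 in epididymis, and 1117, 905 and 1245 in brain. The 3 organs did not overlap. Its log2 fold was 1.81 ± 0.21 (SE) for testis over brain (adjusted p = 2.4e-05) and 1.10 ± 0.21 over epididymis (adjusted p = 0.00566). Both calls held without each of the 9 libraries in turn, and no near-identical copy was found. For epididymis over brain the log2 fold of 0.71 did not pass with limma (adjusted p = 0.0644) and was called by DESeq2 (0.0151).

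Eef1d, the eEF1Bδ subunit (chr15:75894205-75909556, minus strand), stood at 1339, 1265 and 1032 in testis, 1050, 557 and 566 in epididymis, and 414, 657 and 470 in brain. Testis lay above brain and overlapped epididymis through epididymis replicate 1. The log2 fold over brain was 1.26 ± 0.28 (SE, adjusted p = 0.00879), and without brain replicate 1 the call was lost (adjusted p = 0.0533). Over epididymis it was 0.80 (adjusted p = 0.146). Eef1g, the eEF1Bγ subunit (chr19:8967041-8978479, plus strand), stood at 553, 797 and 504 in testis, 246, 111 and 221 in epididymis, and 208, 221 and 228 in brain. Its testis values lay above the rest, and it was the only elongation factor whose mean was lower in epididymis than in brain. The log2 fold was 1.73 ± 0.36 (SE) over epididymis (adjusted p = 0.0127) and 1.46 ± 0.36 over brain (adjusted p = 0.0148). Without testis replicate 2 neither call held (adjusted p = 0.073 and 0.0804). The call over epididymis was also lost without epididymis replicate 2, and the call over brain without brain replicate 1. Eef1g has 5 such pseudogene copies, Eef1d has 2, and exons of Eef1d share 277 bases with Naprt on the same strand.

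Eef2, the translocation factor (chr10:81176631-81182498, plus strand), separated all 3 organs. It stood at 2924, 2823 and 2301 in testis, 1434, 1654 and 1730 in epididymis, and 629, 799 and 754 in brain. The log2 fold was 1.88 ± 0.20 (SE) for testis over brain (adjusted p = 1.2e-05) and 1.14 ± 0.20 for epididymis over brain (adjusted p = 0.00304), or 3.68-fold and 2.21-fold. Both held without each library in turn. The log2 fold of 0.74 over epididymis sat at the threshold (adjusted p = 0.0476) and was lost when any 1 of the 9 libraries was left out, with adjusted p-values of 0.0537 to 0.147. Eef2 has 3 pseudogene copies.

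**Figure D2:**
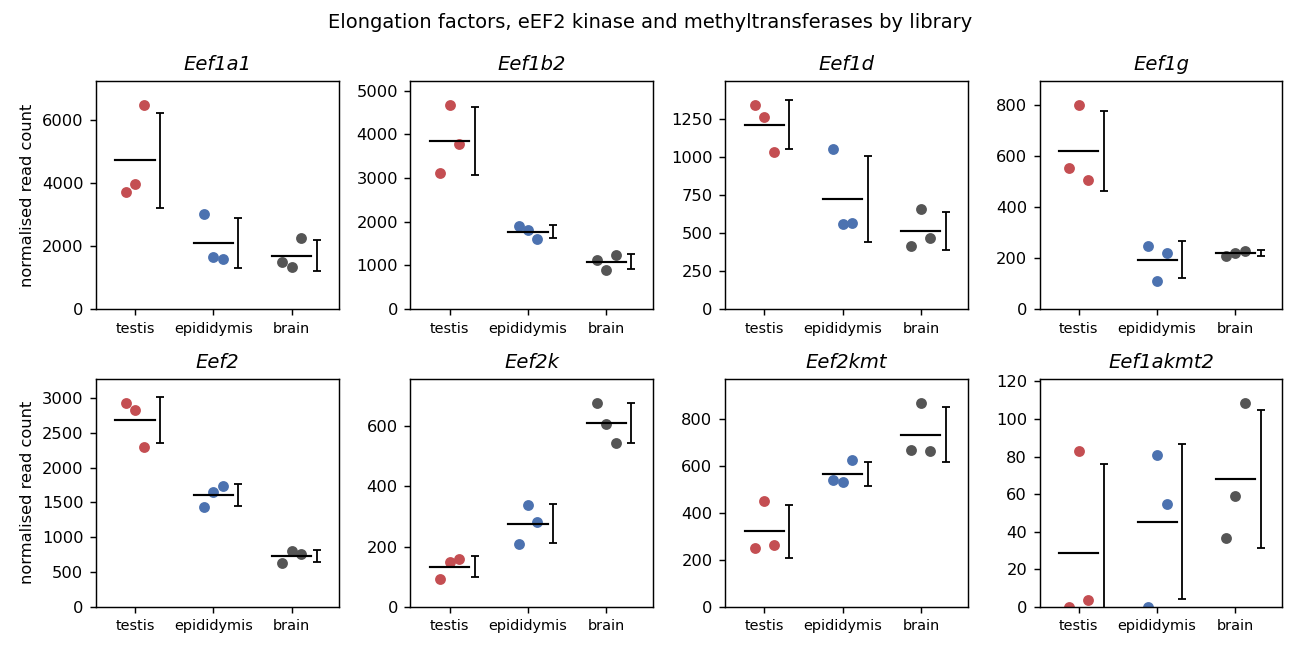
Normalised read count of the 5 elongation factor genes, Eef2k (eEF2 kinase), Eef2kmt (eEF2 lysine methyltransferase) and Eef1akmt2 (eEF1A methyltransferase, not called) in each library. Libraries are points, the mean is a line and the SD of 3 libraries is a bar, on linear axes that start at 0. The testis points of Eef1a1, Eef1b2, Eef1g and Eef2 lie above all others, and Eef2k and Eef2kmt run in the opposite order, with brain highest.

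The genes that act on the elongation factors ran the other way. Eef2k encodes the kinase that phosphorylates and inactivates eEF2 (chr7:120842831-120907450, plus strand). Its normalised read counts were 93.2, 149 and 159 in testis, 210, 337 and 282 in epididymis, and 676, 608 and 544 in brain, with no overlap between organs. It was lower in testis than brain by a log2 fold of -2.21 ± 0.34 (SE, adjusted p = 0.000408), 4.63-fold, and this held without each library in turn. Its exons share 101 bases with Gm15774 on the opposite strand. The folds of -1.05 for testis over epididymis and -1.16 for epididymis over brain did not pass with limma (adjusted p = 0.105 and 0.0688), and DESeq2 called the second (0.0317). Eef2kmt, a lysine methyltransferase of eEF2 (chr16:5244152-5255983, minus strand), stood at 250, 452 and 264 in testis, 540, 531 and 625 in epididymis, and 667, 868 and 665 in brain. These groups did not overlap either. It was lower in testis than brain by -1.23 ± 0.28 (SE, adjusted p = 0.01), a call lost without brain replicate 2 (adjusted p = 0.0554). Its exons share 472 bases with Alg1 on the opposite strand, which the kit does not separate, and Alg1 itself stood at 0 to 17.2. Eef1akmt2, a methyltransferase of eEF1A, was low and scattered, at 0, 83.2 and 3.42 in testis, 0, 80.7 and 55 in epididymis, and 36.4, 59.1 and 108 in brain, and was not called.

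As a ratio within each library, which does not depend on scaling, Eef2 over Eef2k was 31.4, 19.0 and 14.5 in testis, 6.83, 4.91 and 6.13 in epididymis, and 0.931, 1.32 and 1.39 in brain. This ratio is not corrected for gene length. It was chosen after the values were seen and is a description, with no test. The 3 genes of the kinase and methyltransferases summed to 0.978 to 1.90 reads per 10000 in testis, 2.37 to 3.04 in epididymis and 4.21 to 5.05 in brain.

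Of the members listed from background knowledge as having TOP mRNAs, 8 were in the table: the 5 elongation factors, Eif3a, Eif3f and Eif4b. Of these, 7 of 8 were higher in testis than brain, 4 of 8 in testis than epididymis, and 2 of 8 in epididymis than brain, with median log2 folds of 1.57, 0.77 and 0.61. Among all tested genes, 6.82%, 2.49% and 2.99% were called in these directions. This list overlaps the elongation factors in 5 genes, which hold 5 of the 7 calls over brain and all 4 over epididymis. Like the other lists, it was chosen with earlier results of these data known. The exception against brain was Eif3a (log2 fold 0.55, adjusted p = 0.0635), whose testis libraries all lay above the brain libraries.

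A TOP tract begins with a C at the first transcribed base, and the sequences around the annotated starts of 8 called members are shown because 7 of the 8 listed members with such mRNAs passed against brain. They are the called members with a matched window, and Eef2kmt, Eef2k and Eif1 are not on the TOP list. The stretches below, 20 bases before and 30 bases from the RefSeq start on GRCm38, are written 5′ to 3′ on the gene's strand. Capitals mark each C followed by at least 4 letters that are each C or T, on that strand only, beginning within 20 bases of the start.
Eef2, chr10:81176611-81176660, plus strand: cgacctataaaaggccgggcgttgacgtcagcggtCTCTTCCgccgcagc
Eef1a1, chr9:78481695-78481744, minus strand: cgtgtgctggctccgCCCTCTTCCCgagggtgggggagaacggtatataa
Eif3f, chr7:108934395-108934444, plus strand: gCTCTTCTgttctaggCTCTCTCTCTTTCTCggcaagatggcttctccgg
Eif4b, chr15:102073753-102073802, plus strand: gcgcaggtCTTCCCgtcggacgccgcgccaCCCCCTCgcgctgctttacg
Eef1b2, chr1:63176811-63176860, plus strand: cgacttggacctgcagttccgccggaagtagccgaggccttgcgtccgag
Eef2k, chr7:120842811-120842860, plus strand: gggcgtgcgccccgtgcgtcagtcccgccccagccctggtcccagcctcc
Eef2kmt, chr16:5255927-5255976, minus strand: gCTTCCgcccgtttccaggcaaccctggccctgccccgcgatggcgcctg
Eif1, chr11:100319929-100319978, plus strand: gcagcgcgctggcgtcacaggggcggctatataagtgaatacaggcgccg
The tract began 15 bases after the annotated start in Eef2 and 5 before it in Eef1a1. The start of the Eef1a1 window, 78481724, lies inside the gene span given above, whose 5′ end is 78489151. A tatataa stretch follows the marked tract in that window, so the marked stretch need not be the TOP tract of Eef1a1. Eif3f held tracts beginning 19 and 4 bases before its start, and Eif4b held tracts 12 before and 10 after. Eef2kmt, lower in testis, held a tract 19 bases before its start. The windows of Eef1b2 and Eif1, both higher in testis, held none, nor did the window shown of the 3 for Eef2k, so tracts and direction did not go together throughout. Such a tract was in 48.2% of all 32851 RefSeq windows and in 28 of 63 windows of the 48 matched members (44.4%), so its presence in a window is common, and it was searched for after the values were seen. The annotated start need not be the start used in these cells.

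Among the initiation factors and their regulators, 51 were tested and most did not pass. In this set 4 of 51 were higher in testis than brain, 2 of 51 in testis than epididymis and 1 of 51 in epididymis than brain, or 7.84%, 3.92% and 1.96%, each near the background already given. In no comparison was any of the 51 called lower in the organ named before the other, by limma, edgeR or DESeq2. At an unadjusted p below 0.05, limma marked 14, 12 and 5 of the 51 in either direction, beside 23.4%, 17.5% and 16.4% of all tested genes. All 3 testis libraries lay above all 3 brain libraries for 18 of the 51 (35.3%) and below them for 3 (5.88%), beside 15.9% and 14.9% of all tested genes.

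In the start codon and subunit joining group, 1 of 9 passed. Eif1, which keeps the scanning ribosome from starting at a wrong codon (chr11:100319885-100322096, plus strand), stood at 2127, 2152 and 2258 in testis, 1000, 1029 and 1483 in epididymis, and 999, 1382 and 1309 in brain. Testis lay above both other organs, which overlapped. Testis was higher by a log2 fold of 0.92 ± 0.21 (SE) than epididymis (adjusted p = 0.0243) and 0.84 ± 0.21 than brain (adjusted p = 0.0184). The call over epididymis was lost without any 1 of the testis libraries or without epididymis replicate 1 or 2, and the call over brain without testis replicate 2 or 3 or brain replicate 1, with adjusted p of up to 0.0932 and 0.104. Rescaling to the same total also ended both (0.0543 and 0.0748). Eif1 has 20 near-identical copies, 19 of them pseudogenes, so its level is uncertain. The gene with the highest mean of the group was Eif5b, the GTPase that joins the ribosomal subunits. It stood at 3425, 3157 and 2764 in testis, 3321, 3158 and 2860 in epididymis, and 2135, 2567 and 1941 in brain. Testis and epididymis covered the same range and brain lay below both, by log2 folds of 0.50 and 0.50 that did not pass with limma (adjusted p = 0.0973 and 0.151), although DESeq2 called it between testis and brain (0.0405). Eif1ax had the widest fold of the group, 2.44 ± 0.90 (SE) for testis over epididymis, and did not pass either (adjusted p = 0.161).

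Among the 12 genes of eIF3, the scaffold that binds the small ribosomal subunit, Eif3f alone was called by limma. DESeq2 on recovered reads also called Eif3a and Eif3j2 in testis over brain (adjusted p = 0.0202 and 0.0355) and Eif3j2 in testis over epididymis (0.0212). Eif3f (chr7:108934417-108942951, plus strand) stood at 981, 1723 and 1049 in testis, 915, 906 and 949 in epididymis, and 340, 361 and 444 in brain. Brain was far below both other organs, and testis lay just above epididymis. The log2 fold was 1.67 ± 0.25 (SE) for testis over brain (adjusted p = 0.000356) and 1.28 ± 0.25 for epididymis over brain (adjusted p = 0.00751), or 3.19-fold and 2.43-fold, and both held without each library in turn. Testis over epididymis was 0.39 (95% interval -0.15 to 0.93). Eif3a, the largest eIF3 subunit and the one with the highest mean, stood at 3269, 2839 and 2873 in testis, 2963, 2894 and 2886 in epididymis, and 1925, 2467 and 1803 in brain, again with brain below both. For 8 of 12 genes all testis libraries exceeded all brain libraries, and for 1 of 12, Eif3j1, all were below. Summed, the 12 genes took 20.1 to 23.5 reads per 10000 in testis, 19.3 to 20.9 in epididymis and 15.6 to 16.9 in brain. Eif3j1 and Eif3j2 are near-identical copies, so the split of reads between them is uncertain.

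In the eIF4 group, 2 of 12 were higher in testis than brain and 1 of 12 in testis than epididymis. Eif4b, a cofactor of the eIF4A helicase (chr15:102073773-102097173, plus strand), stood at 424, 679 and 361 in testis, 258, 429 and 443 in epididymis, and 84.7, 124 and 217 in brain. Brain lay below both other organs, which overlapped. Eif4b has 2 pseudogene copies with at least 90% identity over 300 bases, so its level is uncertain. Testis over brain gave a log2 fold of 1.83 ± 0.40 (SE) (adjusted p = 0.00755), lost without testis replicate 2 (0.052), and 1.47 ± 0.40 for epididymis over brain, just short of the threshold with limma (adjusted p = 0.0504) and called by DESeq2 (0.0337). Eif4e3, a member of the eIF4E cap-binding family (chr6:99625135-99666771, minus strand), stood at 1082, 840 and 597 in testis, 197, 488 and 299 in epididymis, and 393, 369 and 315 in brain. Testis lay above both, which overlapped. The log2 fold was 1.41 ± 0.34 (SE) over epididymis (adjusted p = 0.0281) and 1.19 ± 0.34 over brain (adjusted p = 0.034). Both calls were lost without testis replicate 1 or 2, with an adjusted p of up to 0.118 and 0.135, and on rescaling to the same total (0.0544 and 0.0912). The first was also lost without epididymis replicate 1 or 3, and the other without any 1 of the brain libraries. Exons of Eif4e3 share 373 bases with Gm20696 on the same strand.

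**Figure D3:**
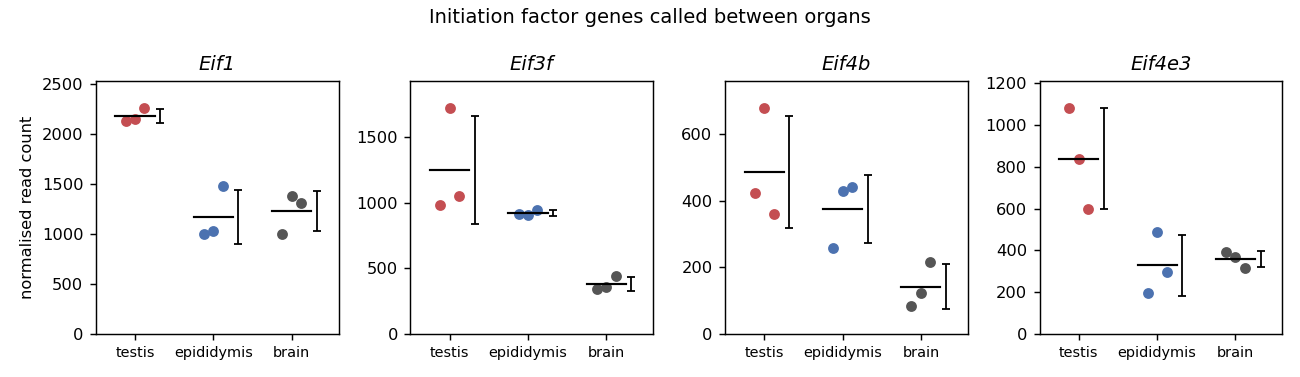
Normalised read count of the 4 called initiation factor genes in each library, as points, with the mean as a line and the SD of 3 libraries as a bar, on linear axes that start at 0. Eif1 and Eif4e3 are high in testis, while brain is lowest for Eif3f and Eif4b.

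The gene with the highest mean of the eIF4 group, the helicase Eif4a1, stood at 1477, 1654 and 1787 in testis, 1313, 1803 and 1389 in epididymis, and 1380, 1217 and 1681 in brain, with all 3 organs overlapping. Its log2 fold for testis over brain was 0.21, with a 95% interval of -0.23 to 0.65. The group's summed share overlapped too, at 21.3 to 25 reads per 10000 in testis, 18.3 to 23.4 in epididymis and 22.6 to 23.8 in brain. Eif4g2, a scaffold related to eIF4G that does not bind eIF4E, reached the lowest adjusted p of the group's uncalled members between testis and epididymis (log2 fold 0.67, limma adjusted p = 0.0923, DESeq2 0.0439). Eif4e, the main cap-binding protein, had a log2 fold of 1.18 ± 0.44 (SE) for testis over brain, which did not pass (adjusted p = 0.105).

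None of the 4 eIF2 subunit genes, 5 eIF2B subunit genes or 4 eIF2α kinase genes was called in any comparison. Eif2s3x and Eif2s3y encode forms of the same eIF2 subunit. At an unadjusted p below 0.05, limma marked 2 eIF2B subunits and 1 kinase between testis and epididymis, and 0 of these genes in the other comparisons. With edgeR and DESeq2 the calls were also 0. Eif2s2, the eIF2β subunit, stood at 3981, 3496 and 3266 in testis, 2258, 3073 and 4022 in epididymis, and 2336, 2121 and 3782 in brain, with wide overlap. Eif2b4, the eIF2Bδ subunit, stood at 137, 344 and 314 in testis, 495, 277 and 852 in epididymis, and 401, 410 and 546 in brain, where testis lay below brain. That log2 fold was -0.86 (adjusted p = 0.236), and its exons share 204 bases with Snx17 on the opposite strand. The summed eIF2B share was 1.48 to 2.29 reads per 10000 in testis, below the 2.80 to 4.73 of epididymis and the 2.53 to 3.32 of brain. Eif2ak1, the haem-regulated kinase, stood at 424, 372 and 184 in testis, 174, 198 and 463 in epididymis, and 230, 422 and 226 in brain, with no separation. Eif2ak2, which encodes the double-stranded RNA-activated kinase PKR, had a log2 fold of -1.18 ± 0.45 (SE) for testis over epididymis, with the testis libraries all below (adjusted p = 0.18).

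The 3 tested eIF4E-binding proteins and the 2 eIF5A genes were not called either, by limma, edgeR or DESeq2. Eif4ebp2 (4E-BP2) stood at 345, 533 and 420 in testis, 455, 269 and 396 in epididymis, and 107, 307 and 296 in brain. Its testis values lay above brain and overlapped epididymis, and the log2 fold over brain of 0.99 did not pass (adjusted p = 0.147). Eif4ebp1 (4E-BP1) had all testis libraries below all of epididymis and all of brain, with log2 folds of -0.45 and -0.82 (adjusted p = 0.653 and 0.291). Eif5a, the hypusine-bearing factor that relieves stalled ribosomes, stood at 233, 231 and 256 in testis, 118, 127 and 30.2 in epididymis, and 27.3, 68.0 and 124 in brain. Testis lay above both other organs, and the log2 folds of 1.63 and 1.95 did not pass (adjusted p = 0.228 and 0.0832).

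**Figure D4:**
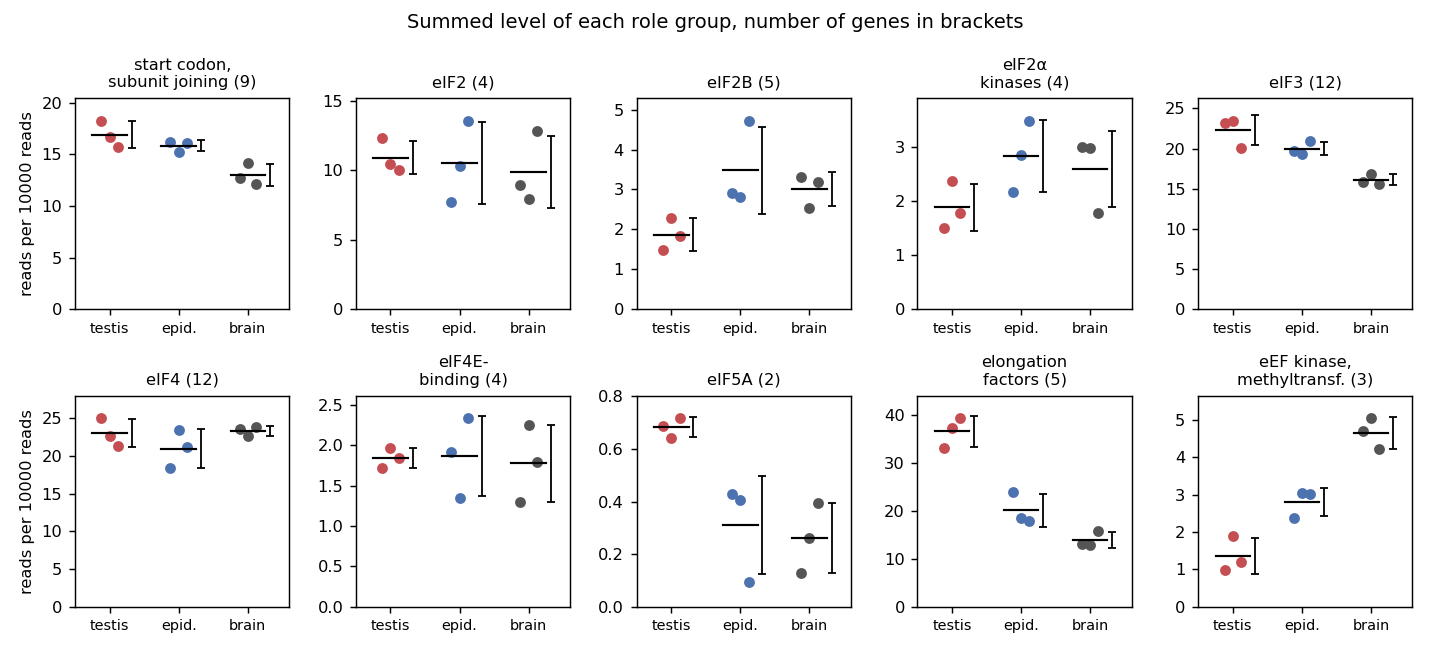
Summed reads of each role group per 10000 reads of the same library, as points for the 9 libraries, with the mean as a line and the SD as a bar, on linear axes that start at 0. The elongation factors run from testis down to brain, at 33.2 to 39.4, 17.9 to 24.1 and 12.9 to 15.8, and the kinase and methyltransferases run from brain down to testis.

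Within a complex the measured levels per exon length differed far more between subunit genes than between organs. Per kb of exon (normalised read count divided by the exonic length in GENCODE M21, mean of 9 libraries), eIF3 subunits ran from 378 for Eif3j2 and 304 for Eif3a to 7.84 for Eif3m and 6.34 for Eif3l. Eif2s2 reached 466 per kb, against 26.9 for Eif2s3y, 16.2 for Eif2s1 and 16.1 for Eif2s3x, the other eIF2 subunit genes. The eIF2B subunits ran from 161 for Eif2b4 to 11.8 for Eif2b3. The elongation factors stood at 1133 per kb for Eef1a1, 883 for Eef1b2, 503 for Eef2, 132 for Eef1g and 126 for Eef1d, and Eif1 at 728. Exonic length counts all annotated isoforms, and the annotation used for counting is not given in the sources used here, so these levels are approximate. Eif3j1 and Eif3j2 are near-identical, and Eif2s1, Eif2s3x, Eif2s2 and Eif3m have 5, 2, 1 and 1 pseudogene copies. How shared reads were counted is not known, so part of the differences between subunit genes may lie in the counting, which was not tested.

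**Figure D5:**
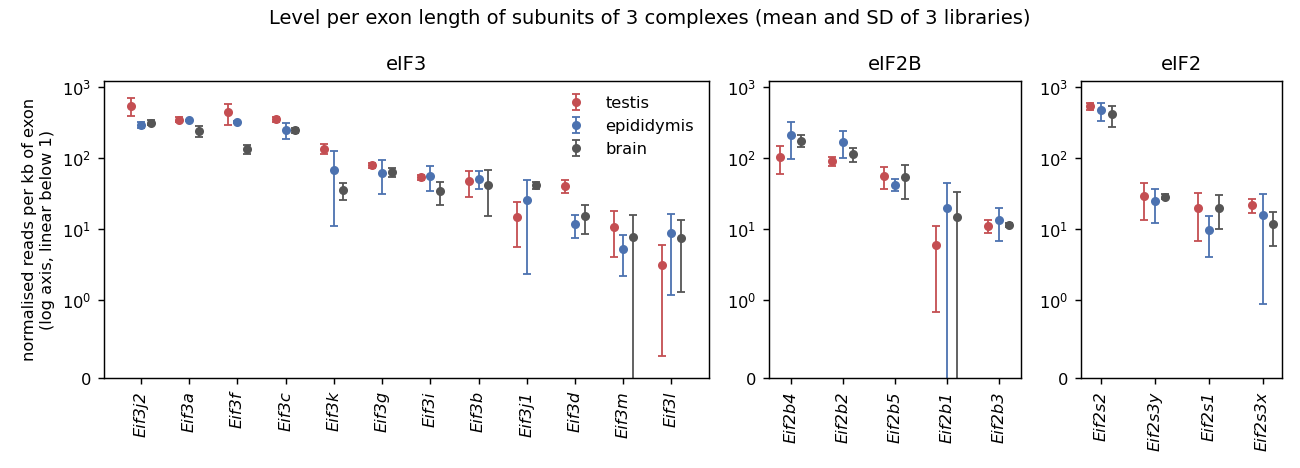
Normalised read count per kb of exon of the subunits of eIF3, eIF2B and eIF2, on a log axis that is linear below 1, with the mean of 3 libraries as a point and the SD as a bar, which is cut at 0 where it would go below. Genes of eIF3 span from 378 per kb (Eif3j2) to 6.34 per kb (Eif3l) in their mean over 9 libraries, while the 3 organs of 1 gene mostly lie close together. How reads shared between near-identical copies, such as Eif3j1 and Eif3j2, were counted is not known.

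For 8 pairs of related members, the log2 ratio within a library was compared over the 3 organs with an exact permutation F test of 280 splits, whose smallest possible p is 0.00357. None of the 8 passed after adjustment over the pairs. The ratio of Eif4e to Eif4e2, the second of which encodes a cap-binding protein linked to repression, was -1.42, -1.58 and -1.14 (log2) in testis, -2.71, -2.64 and -1.82 in epididymis, and -2.56, -2.80 and -2.72 in brain, with testis above both (exact p = 0.0143, adjusted p = 0.0571). Eif4ebp1 over Eif4ebp2 was -1.63, -2.29 and -2.05 in testis, -1.93, -1.19 and -0.82 in epididymis, and 0.69, -0.54 and -0.68 in brain, where brain lay above both (exact p = 0.0107, adjusted p = 0.0571). Both passed only when epididymis replicate 1 was left out (adjusted p = 0.0429 each). The other 6 pairs had adjusted p-values of 0.20 to 0.95, and among them Eif4a1 over Eif4a2 had organ means of 0.36, 0.55 and 0.04.

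Further genes of translation were read from lists of related factors. Of all tested genes, 4.39% were called in either direction between testis and epididymis, 11.7% between testis and brain and 4.79% between epididymis and brain. No conclusion about a list is drawn from 1 call in it. Of 5 poly(A)-binding genes, Pabpc1, the main cytoplasmic poly(A)-binding protein, was higher in testis than epididymis (4779 ± 888 against 2265 ± 457, SD, n = 3 each, log2 fold 1.08, limma adjusted p = 0.00935) and than brain (log2 fold 1.14). Of 7 further initiation helpers, Rack1, a scaffold on the small ribosomal subunit, was higher in testis than brain by 2.04, in testis than epididymis by 1.29 and in epididymis than brain by 0.76, all in log2, the last not called with edgeR. Among 6 nascent chain and associated TOP genes, Tpt1 was higher in testis than both (1.37 over epididymis and 1.86 over brain), Npm1 in testis than brain (1.07), and Nap1l1 in testis and epididymis than brain (2.21 and 1.51). Of 11 genes of mTORC1, S6 kinase and MNK, Mknk2, which encodes a kinase of eIF4E, was higher in testis than epididymis (log2 fold 3.12). Rptor, the mTORC1 scaffold raptor, was lower in testis than brain (-2.13). Without the variance trend, limma kept only Rack1, Tpt1 and Nap1l1 in testis over brain and Mknk2 in testis over epididymis among these calls.

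The stress genes downstream of eIF2α gave 1 call among 7 tested, Atf3, higher in testis than epididymis (1.38), and it is also on the dissociation stress list. Among 19 cytosolic aminoacyl-tRNA synthetases, Yars was lower in testis than brain (-1.23) and no other was called, beside 4.83% of all tested genes lower there. The calls of Atf3 and Yars were lost without the variance trend. No call was made by limma, edgeR or DESeq2 among 6 termination and recycling genes or 7 tested genes of hypusine and diphthamide synthesis, which had 0 to 1 and 0 to 2 genes at an unadjusted p below 0.05 per comparison.

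Markers of other cells and of tissue handling also differed between the organs. The 14 dissociation stress genes summed to 384 to 435 reads per 10000 in testis, 146 to 155 in epididymis and 205 to 318 in brain. Jun and Hspa1a had the highest values of that list in every library. Not every gene of it followed the order of the sum: Ier3, for one, was higher in all epididymis than all brain libraries. Leydig cell markers (6 of 7 in the table) summed to 3.82 to 10.4 in testis, 0.091 to 0.643 in epididymis, where Insl3, Cyp17a1, Hsd3b1 and Hsd17b3 were at 0, and 0.249 to 0.336 in brain, where Cyp17a1 and Hsd3b1 were at 0. Germ cell markers (10 of 12) summed to 2.80 to 6.6 in testis, 1.67 to 2.70 in epididymis, with Akap4 and Pgk2 at 0, and 0.00284 to 0.056 in brain, with Prm1, Tnp2, Akap4, Smcp, Odf1 and Pgk2 at 0. Markers of T and NK cells (6 of 11) summed to 1.35 to 2.47 in testis, 0.207 to 0.543 in epididymis, with Lck at 0, and 0.222 to 0.506 in brain, with Cd3e, Lck and Nkg7 at 0. Epididymal epithelium markers (7 of 10) reached 1.24 to 1.96 in epididymis and at most 0.117 in testis and 0.028 in brain. Astrocyte markers (4 of 5) reached 1.56 to 1.86 in brain, with Aldoc at 0, and at most 0.419 in testis and 0.685 in epididymis, both with Aqp4 at 0. Slc1a3 had the highest value of that list in each brain library (339 to 512), while Aldoc stood at 43.5 to 66.2 in testis. The part of these cells, or of tissue handling, in the differences of the members was not tested.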

How the data were processed

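Per the labels' protocols, sorted macrophages gave 10 ng of RNA per library for a TruSeq v2 kit, a kind that does not mark strand. The deposited table holds signal values that the authors made as reads per gene divided by 1 factor per library. In each library 100% of values were whole multiples of what 1 read is worth (largest deviation 3.93e-10 reads), so reads were recovered by division. CASAVA 1.8, Bowtie2 2.2.1, Partek 6.6, DESeq2 and mm10 are named per the submitters' processing notes. Which tool did what, how reads were counted and with which annotation is not given in the sources used here.

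Values were analysed as log2(value + 1) with limma 3.58.1 (R 4.3.3), 1 mean per organ over 9 libraries and a variance trend. A gene was tested if it reached 10 in 3 libraries, and Benjamini-Hochberg adjustment ran over all 11766. Alternatives were other pseudocounts, filters, scalings and variance models, the 6 compared libraries alone, edgeR 4.0.16 quasi-likelihood and DESeq2 1.42.0 on recovered reads, and leaving out each library. The fit was tested on simulated data. Replicates are numbered in the order of the sample list. Exon overlaps, lengths and copies came from GENCODE M21 (GRCm38), and start windows from RefSeq.

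Values in every library are given for members called in any comparison and for the member with the highest mean of each role group. Genes of other translation lists are named where called. The list of mitochondrial factors is not reported here. The members and lists were chosen with earlier results of these data known. Members of the same families that are not rows of the table were not analysed here.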

Additional observations from a re-analysis of the deposited data

How the results depend on the processing

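No paired analysis was possible because the labels give the organs no shared replicate numbers. Precision is limited by 3 libraries per organ. Over all other settings, 64 recomputed counts of called members stayed within 1.5 times of the reported count and 14 moved further. Without the variance trend, limma called 0 between testis and epididymis (6 as reported), 4 between testis and brain (11), 0 between epididymis and brain (2) and 3 among the 3 organs (11), with 9, 14 and 5 members at an unadjusted p below 0.05 in the 3 pairs. The 4 between testis and brain were Eef1b2, Eef2, Eef2k and Eif3f. For the 3 pairs edgeR called 5, 11 and 2, all within 1.5 times of the reported counts. DESeq2 called 8, 14 and 5, of which only the last lay outside that range. Between testis and epididymis, 3 were called with libraries rescaled to the same total and 1, Eef1b2, with only the 6 libraries compared. Leaving out 1 library at a time gave 1 to 5 calls for testis and epididymis, 7 to 13 for testis and brain, 2 to 3 for epididymis and brain, and 6 to 12 among the 3 organs. Uncalled log2 folds of epididymis over brain changed sign when 1 library was left out: Eef1a1 ranged from -0.0196 (without epididymis replicate 1) to 0.497, Eef1g from -0.481 to 0.0927 (without epididymis replicate 2), Eif1 from -0.264 to 0.0203 (without epididymis replicate 1, and 0.00966 without brain replicate 2), and Eif4e3 from -0.555 to 0.0954 (without epididymis replicate 1). The cause was not tested. Of 660 recomputed folds of the 11 called members, 579 kept direction and side of the threshold, 66 lost a call, 10 gained one and 5 changed sign.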
